A study of Mus musculus with 9 samples.

Results

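The genes described here are 9 transcription factors that direct CD4+ helper T cells toward their effector lineages: *Tbx21* (T-bet), *Gata3*, *Rora*, *Bcl6*, *Maf* (c-Maf), *Prdm1* (Blimp-1), *Runx1*, *Runx3* and *Ahr*. They were taken by gene name from a table of 55487 genes, and all 9 were found, each listed once, at its GRCm38 locus in GENCODE M21. RNA-seq had been performed on CD4+ T cells isolated by negative selection from the spleens of C57BL/6 mice with intact TRAIL receptor genes (*Trail-r*+/+, females 6 to 7 weeks old), in 3 groups of 3 libraries. Medium cells received no Abs, and the length of their culture is not given in the sources used here. Stimulated cells received anti-CD3 Abs at 3 µg/ml and anti-CD28 Abs at 2 µg/ml for 24 h; the first Ab engages the TCR complex and the second the costimulatory receptor CD28. TRAIL-treated cells received the same Abs together with TRAIL at 10 µg/ml, a cytokine of the TNF family, for 24 h. The question was how TRAIL changes the transcriptional response to TCR stimulation. TRAIL without Abs and cells lacking TRAIL-R were not analysed here. Whether the 3 libraries of a group came from separate mice or cultures is not stated, so the p-values measure only the spread between these libraries, which may be technical.

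A naive CD4+ T cell that receives TCR and costimulatory signals can become a Th1, Th2, Th17 or follicular helper (Tfh) cell, and each fate is tied to a transcription factor that activates its own program and restrains the others. T-bet drives Th1 cells, with Runx3 as its partner at the interferon-γ locus. GATA3 drives Th2 cells, RORα supports Th17 cells, Bcl6 drives Tfh cells, and Blimp-1 opposes Bcl6. c-Maf, Runx1 and the ligand-activated receptor AhR act in several of these lineages.

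The values were TPM, a transcript abundance corrected for gene length, with every library scaled to the same total (1000003 here). Genes can therefore be compared with each other, but depth is not kept, so the read number behind each value is unknown and its error rests on the 3 libraries. A gene was called changed when limma on log2(TPM + 1) gave an adjusted p under 0.05 over 15536 tested genes and a change of at least 2-fold. Fold changes are on this log2(TPM + 1) scale, which understates the change of genes at a few TPM. Within groups, libraries correlated across genes at 0.983 to 0.993. Stimulated replicate 1 stood somewhat apart. Its genes in the longest of 3 equal groups by annotated exon length (4920 bases or more) lay a median of 0.34 below the other stimulated libraries on the log2 scale, while those in the shortest group lay 0.06 above. Of the 9 factors, 7 belong to that longest group, and all 9 were lowest of their group in this library, at 52.1 to 86.6% of the mean of the other 2. Medium replicate 2 was highest of its group for all 9. Results that turn on stimulated replicate 1 are given with and without it.

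The T cell markers were abundant in every library, with a summed level of 4800 to 4880 TPM in medium, 4030 to 4410 TPM after stimulation and 4850 to 5220 TPM with TRAIL, and all 11 were detected. Of these 11, only *Cd3g* was called after stimulation (-1.04), and none was called with TRAIL against stimulated cells. Markers of other spleen cells were present as well and moved with the groups. The 8 B cell markers summed to 5830 to 6420, 677 to 738 and 2960 to 3410 TPM in the medium, stimulated and TRAIL-treated libraries. The 8 markers of red pulp macrophages summed to 1070 to 1280, 15.2 to 17.3 and 1020 to 1160 TPM, and each of them was called lower after stimulation and higher with TRAIL. In the same order, 7 erythroid markers summed to 2090 to 2550, 25.6 to 40.8 and 614 to 663 TPM, and 5 neutrophil markers to 466 to 757, 25.2 to 39.9 and 327 to 418 TPM. Plasma cell markers (5 genes) gave 1260 to 1530, 60.8 to 79.8 and 1230 to 1410 TPM, and NK cell markers (5 genes) 174 to 223, 32.6 to 39.2 and 60.5 to 67.6 TPM. Dendritic cell markers (6 genes) gave 54.3 to 59.1, 9.67 to 13.3 and 33.2 to 35.5 TPM, and 3 markers of mast cells and basophils gave 11.2 to 13.6, 4.21 to 6.37 and 6.67 to 8.38 TPM. *Cd8a* and *Cd8b1*, of CD8 T cells, summed to 110 to 118, 94.2 to 105 and 46.9 to 49.4 TPM. The 5 genes of regulatory T cells, several of which activated T cells also express, summed to 191 to 211, 1540 to 1780 and 290 to 324 TPM. The genes within that sum differed: *Il2ra* was called higher after stimulation (5.11) and lower with TRAIL (-5.16), and *Ikzf2* was called lower (-1.70) and then higher (1.68). Among the defining markers, *Elane*, of neutrophils, was listed at the floor of 0.0001 TPM in 2 stimulated libraries, and *Alas2*, of erythroid cells, and *Xcr1*, of dendritic cells, in 1 each.

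Promoter windows of 300 bases, from 250 before to 50 after a transcription start, were found in RefSeq (GRCm38.p6) for 7 of the 9 factors, as 10 windows among 32851. No window was listed for *Maf* and *Ahr*. Both *Runx1* and *Runx3*, which moved in opposite directions below, have 2 listed starts, and the upstream start of each carries the same tandem pair of RUNX motifs. They are shown 5′ to 3′ on the strand of the gene, with the motif in capitals. The motif searched was TGTGGT on both strands, so it reads ACCACA here. The *Runx3* window is at chr4:135120395-135120694 (plus strand) and the *Runx1* window at chr16:92826025-92826324 (minus strand).
Runx3 upstream promoter: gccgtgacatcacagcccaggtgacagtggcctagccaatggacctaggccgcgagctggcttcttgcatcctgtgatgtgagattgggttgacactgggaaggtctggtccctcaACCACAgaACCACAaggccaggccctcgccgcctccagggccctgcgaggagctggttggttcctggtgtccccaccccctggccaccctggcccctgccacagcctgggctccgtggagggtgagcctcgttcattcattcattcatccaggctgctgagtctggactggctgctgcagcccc
Runx1 upstream promoter: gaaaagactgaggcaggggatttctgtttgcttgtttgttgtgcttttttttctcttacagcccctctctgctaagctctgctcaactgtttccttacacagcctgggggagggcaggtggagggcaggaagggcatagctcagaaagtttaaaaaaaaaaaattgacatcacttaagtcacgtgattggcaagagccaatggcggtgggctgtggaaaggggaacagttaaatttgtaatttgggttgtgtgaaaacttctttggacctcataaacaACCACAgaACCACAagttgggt

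A run of 18 bases around the motifs was identical in both.
Shared run: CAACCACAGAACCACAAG

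It begins 136 bases before the start in *Runx3* and at base 27 after it in *Runx1*, counted with the first transcribed base as 1. Among all windows in the table, 4 held the run, those of *Runx1*, *Runx2*, *Runx3* and *Gm16225*. At least 1 RUNX motif was in 16.8% of all windows, and 595 windows (1.81%) held 2 or more. Gene-level TPM does not separate the transcripts of the 2 starts.

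The antagonists *Bcl6* and *Prdm1* are shown next because their windows hold letters read by factors downstream of cytokine receptors and of the TCR. The second *Bcl6* window, at chr16:23981234-23981533 (minus strand), has 3 matches to TTCNNNGAA, the palindrome bound by STAT proteins and overlapping the site of Bcl6 itself, and the first *Bcl6* window has 1, with 8.3% of all windows holding any. The *Prdm1* window, at chr10:44458699-44458998 (minus strand), has 1 match to the AP-1 motif TGANTCA, present in 7.81% of windows.
Bcl6 second promoter, STAT and Bcl6 palindromes in capitals: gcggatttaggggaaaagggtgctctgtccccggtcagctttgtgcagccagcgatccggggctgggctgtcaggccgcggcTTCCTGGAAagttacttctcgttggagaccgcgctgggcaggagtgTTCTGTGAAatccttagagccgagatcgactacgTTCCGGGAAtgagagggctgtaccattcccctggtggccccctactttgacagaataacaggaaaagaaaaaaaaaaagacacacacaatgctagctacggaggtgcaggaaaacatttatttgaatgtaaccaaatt
Prdm1 promoter, AP-1 motif in capitals: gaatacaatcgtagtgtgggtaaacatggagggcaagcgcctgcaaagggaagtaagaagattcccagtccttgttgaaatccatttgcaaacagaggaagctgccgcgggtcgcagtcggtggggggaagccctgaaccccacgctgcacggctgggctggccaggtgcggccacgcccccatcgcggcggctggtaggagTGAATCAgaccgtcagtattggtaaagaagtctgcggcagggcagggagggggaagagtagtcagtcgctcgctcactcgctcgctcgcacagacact

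Other matches, on either strand, were a T-box motif (GGTGTG, in 19.0% of windows) and a MAF motif (TGCTGA, 19.5%) in *Gata3*, a MAF motif in the upstream window of *Runx3*, and the AhR motif (GCGTG, 32.4%) 2 times in *Prdm1* and 1 time each in *Rora* and the second *Runx1* window. No match to AGATAA (read by Gata3 and its relatives, 11.2%), AGGTCA (RORE, 16.3%) or GAAAGTG (Blimp-1, 4.81%) was in the 10 windows, and the *Tbx21* window had no match to any of the 9 motifs. None of the motifs contains another. These are matches of letters and not measured binding sites.

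All 9 factors were above 1 TPM in every library, so none entered the test through one group alone. After stimulation, 6 of the 9 were called changed (66.7%), beside 31.9% of all tested genes: *Tbx21*, *Gata3*, *Runx3* and *Prdm1* rose (4 of 9, beside 12.4% of tested genes called higher), and *Bcl6* and *Maf* fell (2 of 9, beside 19.5% called lower). On adjusted p alone 8 of 9 passed, beside 68.7%, and for 8 of 9 no stimulated library overlapped a medium library, beside 72.6%. When TRAIL was present, 8 of the 9 were called changed against stimulated cells (88.9%, beside 30.9% of all tested genes). *Tbx21*, *Gata3*, *Runx3* and *Prdm1* were lower with TRAIL (14.3% of tested genes were called lower), and *Bcl6*, *Maf*, *Runx1* and *Rora* were higher (16.6% called higher). On adjusted p alone 8 of 9 passed, beside 67.1%, and all 9 showed no overlap between these groups, beside 70.4%. Between TRAIL-treated and medium cells none of the 9 was called, beside 4.62% of all tested genes (2.49% higher and 2.13% lower), and 3 (*Tbx21*, *Rora* and *Ahr*) showed no overlap, beside 50.6%. At an unadjusted p under 0.05 from limma, 4 of the 9 differed, beside 44.0% of all tested genes. At an adjusted p under 0.05 with no demand on size, which 32.6% of all tested genes passed, *Ahr* and *Rora* were higher in TRAIL-treated than in medium cells, which did not hold under every alternative. The 3 comparisons share libraries, so the opposite directions of the first 2 are not independent of each other. In bulk RNA, fewer cells of a type and less RNA per cell cannot be told apart.

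**Figure D1:**
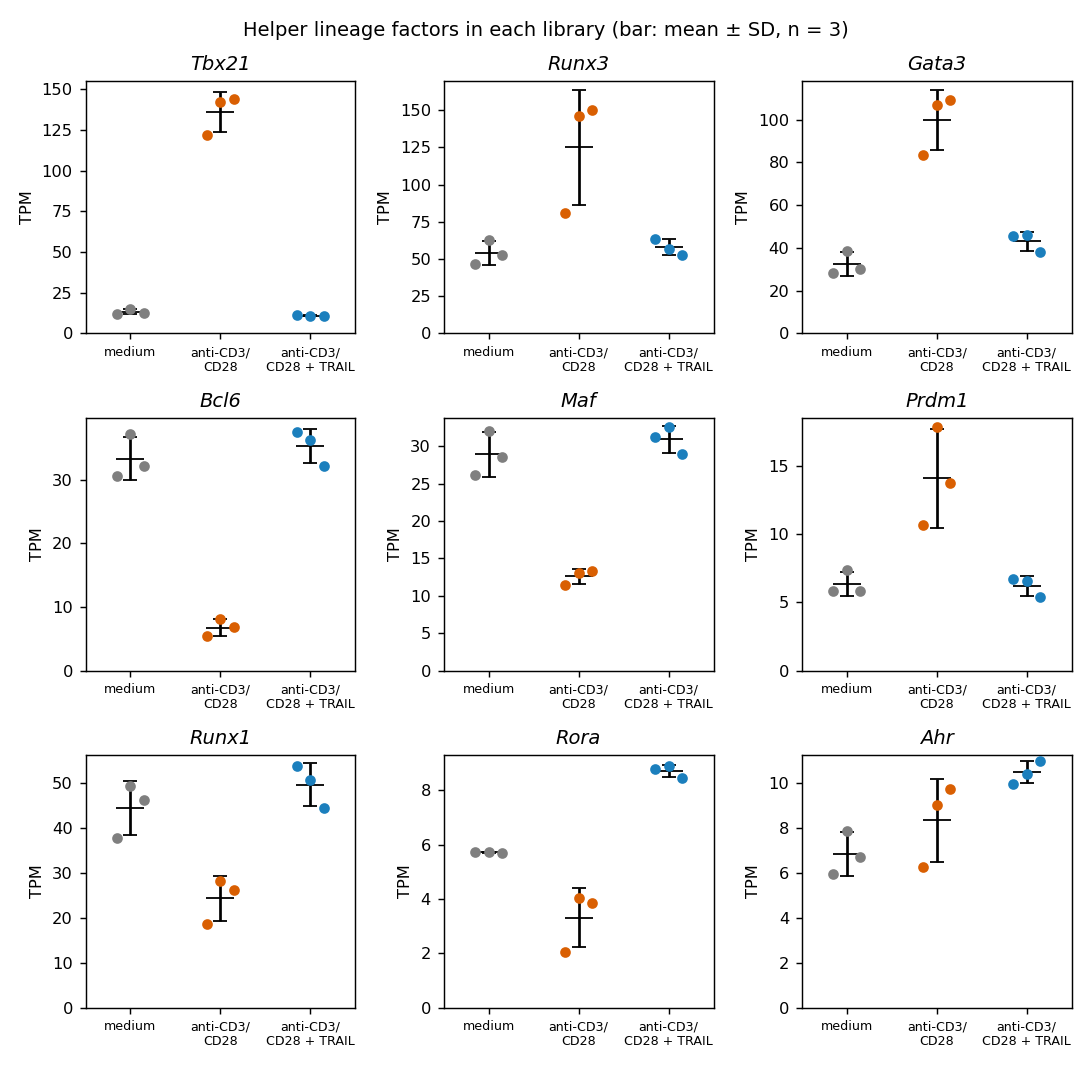
TPM of each factor (vertical axes, linear from 0) in the 3 libraries of each group, with the mean and SD as black bars. *Tbx21*, *Runx3*, *Gata3* and *Prdm1* are highest in stimulated libraries, *Bcl6*, *Maf*, *Runx1* and *Rora* are lowest there, and *Ahr* is highest with TRAIL.

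*Tbx21* encodes T-bet, the factor that switches on *Ifng* and the Th1 program. It measured 12.2, 15.3 and 12.6 TPM in medium, 122, 142 and 144 TPM after stimulation and 11.1, 10.7 and 10.8 TPM with TRAIL. The stimulated libraries were about an order of magnitude above all others, and every TRAIL-treated library was below every medium library. The log2 change was 3.26 ± 0.11 (SE; adjusted p = 4.1e-09) after stimulation and -3.53 ± 0.11 (adjusted p = 3.3e-09) with TRAIL. Against medium the TRAIL-treated level was -0.27 ± 0.11, which did not pass (adjusted p = 0.093).

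*Runx3*, the partner of T-bet that also silences *Cd4* in CD8 T cells, was the most abundant of the 9 in medium. Its values were 46.7, 62.5 and 53.0 TPM in medium, 80.7, 146 and 150 TPM after stimulation and 63.5, 56.9 and 52.9 TPM with TRAIL. Stimulated replicate 1 was far below the other 2, at 54.7% of their mean, and still above every medium and TRAIL-treated library. The log2 change was 1.15 ± 0.22 (adjusted p = 8.4e-04) after stimulation and -1.05 ± 0.22 (adjusted p = 0.00152) with TRAIL. Without stimulated replicate 1 these became 1.44 and -1.34. The second call fell just short of 2-fold without stimulated replicate 2 (-0.92), stimulated replicate 3 (-0.90) or TRAIL-treated replicate 3 (-0.99), and under both other scalings (-0.96 and -0.87), with the adjusted p below 0.05 each time.

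*Runx1*, which maintains naive T cells and restrains *Gata3*, moved against its relative. It measured 37.8, 49.4 and 46.1 TPM in medium, 18.7, 28.1 and 26.1 TPM after stimulation, and 53.7, 50.7 and 44.4 TPM with TRAIL. Every stimulated library was below every other library, while medium and TRAIL-treated libraries overlapped. The fall after stimulation passed on adjusted p (8.3e-04) but not on size, at -0.86 ± 0.16. The rise with TRAIL was 1.02 ± 0.16 (adjusted p = 2.6e-04), and it missed 2-fold without stimulated replicate 1 (0.85), TRAIL-treated replicate 1 (0.96) or TRAIL-treated replicate 2 (1.00 after rounding). Another member of the family, *Runx2*, whose promoter holds the same run of 18 bases, stayed between 4.38 and 7.38 TPM, with log2 changes of 0.09 and 0.07 and no call.

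GATA3 opens the Th2 cytokine genes and is also required in resting CD4+ T cells. *Gata3* was at 28.1, 38.7 and 30.2 TPM in medium, at 83.6, 107 and 109 TPM after stimulation and at 45.6, 45.9 and 37.9 TPM with TRAIL. Stimulated libraries were well above the rest, and the lowest TRAIL-treated value fell inside the medium range. The log2 change was 1.60 ± 0.15 (adjusted p = 5.3e-06) after stimulation and -1.19 ± 0.15 (adjusted p = 5.0e-05) with TRAIL, calls that held under every alternative tried. Unlike *Tbx21*, its mean with TRAIL was above medium (0.41 ± 0.15), but this did not pass (adjusted p = 0.0578).

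*Bcl6* is the repressor that specifies Tfh cells, and B cells of germinal centers also depend on it. Levels were 30.6, 37.1 and 32.2 TPM in medium, 5.36, 8.06 and 6.80 TPM after stimulation and 37.4, 36.2 and 32.2 TPM with TRAIL. The stimulated libraries lay far below the others, which occupied nearly the same range. Its log2 change was -2.16 ± 0.14 (adjusted p = 3.9e-07) after stimulation and 2.24 ± 0.14 (adjusted p = 3.2e-07) with TRAIL, the largest rise of the 9, and 0.08 ± 0.14 between TRAIL-treated and medium cells. *Gm37419*, annotated on the opposite strand over *Bcl6*, reached at most 1.95 TPM, the highest of 9 annotated genes that overlap 7 of the factors. Whether reads were counted by strand is not stated.

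c-Maf drives IL-21, IL-4 and IL-10 in several helper lineages and is also a factor of tissue macrophages. *Maf* measured 26.1, 32.0 and 28.5 TPM in medium, 11.4, 13.0 and 13.3 TPM after stimulation and 31.2, 32.5 and 29.0 TPM with TRAIL. Its 3 stimulated libraries were close together and below all others. The log2 change was -1.14 ± 0.11 (adjusted p = 7.2e-06) after stimulation and 1.24 ± 0.11 (adjusted p = 4.1e-06) with TRAIL. With a pseudocount of 5 TPM or quantile normalization the fall was -0.95 or -0.94 and no longer 2-fold.

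*Prdm1* encodes Blimp-1, a repressor of *Bcl6* in effector T cells and the factor that makes plasma cells. Its 3 medium libraries held 5.87, 7.35 and 5.81 TPM, the stimulated ones 10.7, 17.9 and 13.8 TPM and the TRAIL-treated ones 6.73, 6.60 and 5.39 TPM. Stimulated libraries spread widely but none reached down to the other groups. The log2 change was 1.02 ± 0.18 (adjusted p = 5.0e-04) after stimulation and -1.04 ± 0.18 (adjusted p = 4.4e-04) with TRAIL. Both lay at the edge of 2-fold. Without medium replicate 1, medium replicate 3 or stimulated replicate 2 the rise was 0.98, 0.97 or 0.85, and without stimulated replicate 2 or TRAIL-treated replicate 3 the fall was -0.87 or -0.96. With median-of-ratios scaling the fall was -0.96 as well. Its difference from medium with TRAIL (-0.02 ± 0.18) changed sign with the scaling.

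*Rora*, a nuclear receptor of Th17 and type 2 innate lymphoid cells, was the least abundant factor in medium and in stimulated cells. It gave 5.73, 5.74 and 5.70 TPM in medium, 2.05, 4.04 and 3.84 TPM after stimulation and 8.79, 8.90 and 8.46 TPM with TRAIL. No library of one group reached the range of another, and the TRAIL-treated libraries were the highest. The fall after stimulation was -0.68 ± 0.18 (adjusted p = 0.00639), under 2-fold, and it did not pass on adjusted p with quantile normalization, where the change was -0.31 (adjusted p = 0.0715). With TRAIL the level was 1.21 ± 0.18 above stimulated cells (adjusted p = 1.5e-04) and 0.53 ± 0.18 above medium (adjusted p = 0.0432). The latter difference had adjusted p-values up to 0.106 over the alternatives and did not pass without any 1 of the medium or TRAIL-treated libraries, without the filter (0.102), with a pseudocount of 0.1 TPM (0.0724) or with the replicate block (0.053). Stimulated replicate 1 had 52.1% of the mean of the other 2, and without it the fall after stimulation was -0.44 (adjusted p = 0.00483) and the rise with TRAIL was 0.98.

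*Ahr*, the receptor for aromatic ligands that Th17 and regulatory T cells use, was the only one of the 9 with no call in either comparison involving stimulated cells. Its values were 5.97, 7.89 and 6.71 TPM in medium, 6.28, 9.04 and 9.76 TPM after stimulation and 9.98, 10.4 and 11.0 TPM with TRAIL. Medium and stimulated libraries overlapped, and the TRAIL-treated libraries were above all others. Log2 changes were 0.24 ± 0.16 (adjusted p = 0.206) after stimulation and 0.31 ± 0.16 (adjusted p = 0.11) with TRAIL. Without stimulated replicate 1 they were 0.41 (adjusted p = 0.0175) and 0.14 (adjusted p = 0.362), and without stimulated replicate 3 the first was 0.13 (adjusted p = 0.532). Quantile normalization gave 0.53 (adjusted p = 0.00629) for the first, and median-of-ratios scaling gave 0.40 (adjusted p = 0.0261) for the second. TRAIL-treated against medium, the difference was 0.55 ± 0.16 (adjusted p = 0.0255), under 2-fold, and the median change of all genes in that comparison was -0.18. Other scalings moved that median to -0.02 or -0.04, and *Ahr* was 0.38 to 0.77 above medium over all alternatives. The adjusted p did not pass without medium replicate 1 (0.0875), medium replicate 3 (0.0728), TRAIL-treated replicate 2 (0.0664), TRAIL-treated replicate 3 (0.0819) or the filter (0.0593).

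**Figure D2:**
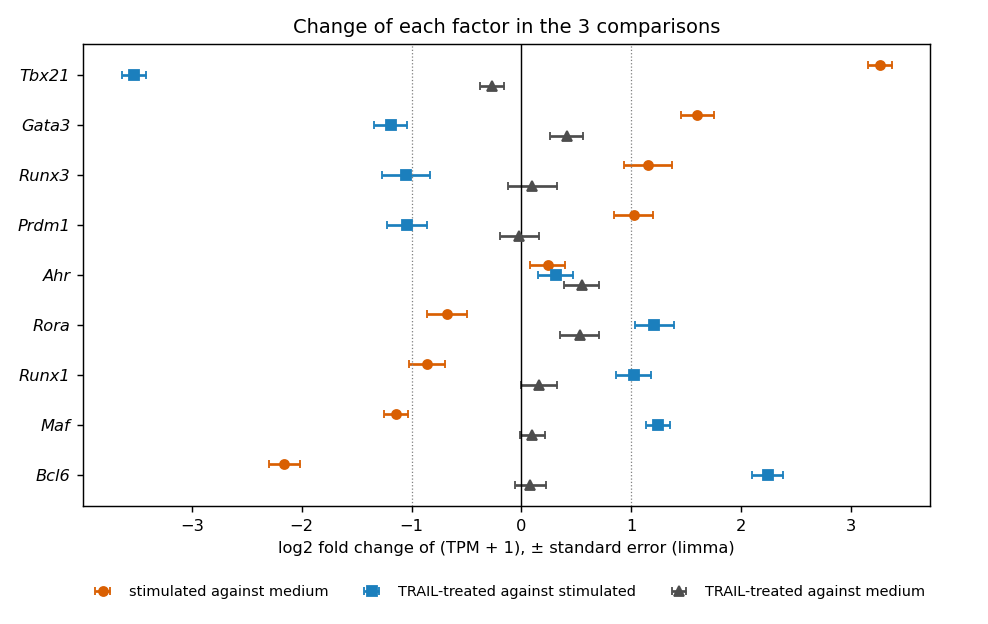
Log2 fold change of (TPM + 1) with its standard error from limma (horizontal axis) for each factor, in 3 comparisons marked by shape and color; dotted lines mark 2-fold. Circles and squares lie on opposite sides of 0 for every factor but *Ahr*, and all triangles lie between -0.27 and 0.55.

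Ratios within a library do not depend on the scaling between libraries, and 3 pairs were examined. *Tbx21* was below *Gata3* in medium, with log2 ratios of -1.21, -1.34 and -1.26, above it in stimulated cells (0.55, 0.41 and 0.41) and furthest below it with TRAIL (-2.04, -2.10 and -1.81). No 2 groups overlapped. The TRAIL-treated libraries held the lowest T-bet to GATA3 transcript ratio, a mean of 0.71 below medium on the log2 scale. The summed NK cell markers were also lower with TRAIL (60.5 to 67.6 TPM) than in medium (174 to 223 TPM). So were *Cd8a* and *Cd8b1* (46.9 to 49.4 against 110 to 118 TPM). The part of NK and CD8 T cells in this ratio was not tested. *Bcl6* exceeded *Prdm1* in medium (2.39 ± 0.07, mean log2 ratio ± SD, n = 3) and with TRAIL (2.50 ± 0.07), whereas *Prdm1* exceeded *Bcl6* after stimulation (-1.06 ± 0.08). *Runx3* and *Runx1* were near parity in medium (0.28 ± 0.07) and with TRAIL (0.22 ± 0.05), and *Runx3* led by 2.33 ± 0.21 after stimulation. Medium and TRAIL-treated libraries overlapped for these last 2 pairs. An exact two-sided permutation test of 3 libraries against 3 cannot go below p = 0.1, so no p is given.

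**Figure D3:**
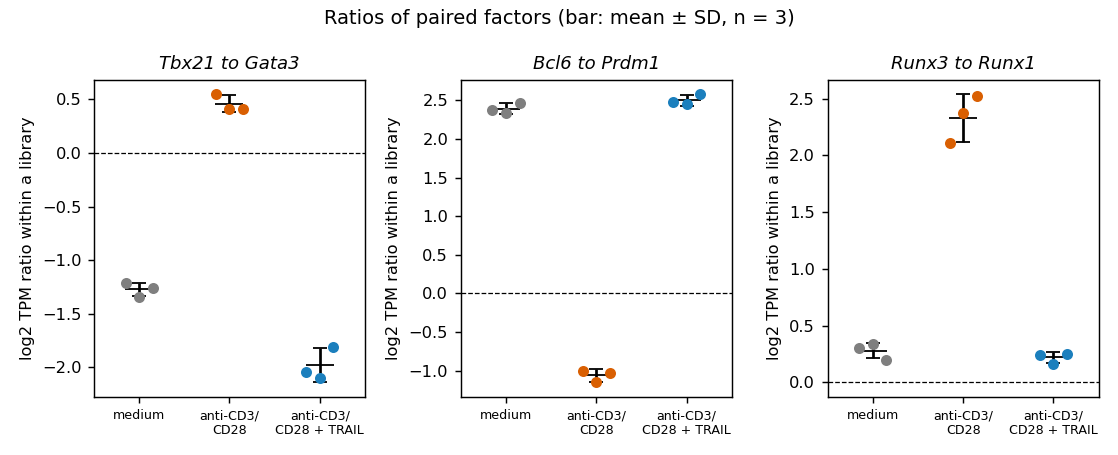
Log2 ratio of the TPM of 2 factors within each library (vertical axes; the dashed line marks equal levels), with the mean and SD of 3 libraries as black bars. *Tbx21* to *Gata3* is lowest with TRAIL, while the other ratios are alike in medium and TRAIL-treated libraries.

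Summed over the 9 genes, the level was 199 to 256 TPM in medium, 341 to 476 TPM after stimulation and 232 to 268 TPM with TRAIL. Of that sum, *Tbx21* held 5.93% ± 0.213 in medium, 32.0% ± 3.31 after stimulation and 4.31% ± 0.313 with TRAIL (SD, n = 3), and *Bcl6* held 14.8% ± 0.493, 1.57% ± 0.134 and 13.9% ± 0.0474. In medium the order by mean TPM was *Runx3*, *Runx1*, *Bcl6*, *Gata3*, *Maf*, *Tbx21*, *Ahr*, *Prdm1* and *Rora*. Neighbours whose libraries overlapped were *Runx3* and *Runx1*, *Bcl6* and *Gata3*, *Gata3* and *Maf*, and *Ahr* and *Prdm1*. After stimulation *Tbx21* (136 TPM), *Runx3* (125 TPM) and *Gata3* (99.7 TPM) led, with *Tbx21* overlapping *Runx3* and *Runx3* overlapping *Gata3*. *Runx1*, *Prdm1*, *Maf*, *Ahr*, *Bcl6* and *Rora* followed, from 24.3 down to 3.31 TPM, with overlaps between *Prdm1* and *Maf* and between *Ahr* and *Bcl6*. With TRAIL the order was *Runx3*, *Runx1*, *Gata3*, *Bcl6*, *Maf*, *Tbx21*, *Ahr*, *Rora* and *Prdm1*. There *Runx3* overlapped *Runx1*, *Runx1* overlapped *Gata3*, *Bcl6* overlapped *Maf*, and *Tbx21* overlapped *Ahr*.

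The 4 factors that were lower in stimulated cells moved in the same direction as most markers of other spleen cells. Among T cell markers, *Cd3g* (-1.04 and 0.99) and *Cd4* (-0.81 and 0.81) had this shape too, while the median of all 11 was -0.12 and 0.26. Of the 47 markers of B, plasma, NK, dendritic, erythroid and mast cells, neutrophils and macrophages, 44 were called lower after stimulation, and 36 of these were called higher with TRAIL. *Zbtb46*, of dendritic cells, went the other way (0.99 and -1.63), *Mzb1*, of plasma cells, was called in neither comparison (-0.47 and -0.14), and *Cd8a*, of CD8 T cells, was not called after stimulation (0.20) and was called lower with TRAIL (-1.62). *Maf*, *Bcl6*, *Runx1* and *Rora* kept 43.5%, 20.3%, 54.7% and 57.9% of their medium mean after stimulation, while the summed macrophage markers went from at least 1070 to at most 17.3 TPM and the B cell markers from at least 5830 to at most 738 TPM. With TRAIL the macrophage and plasma cell sums overlapped the medium range, and the sums of the other non-T cell types were below it. The part of these cells in the levels of *Maf*, *Bcl6*, *Runx1* and *Rora*, or of the other factors, was not tested.

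**Figure D4:**
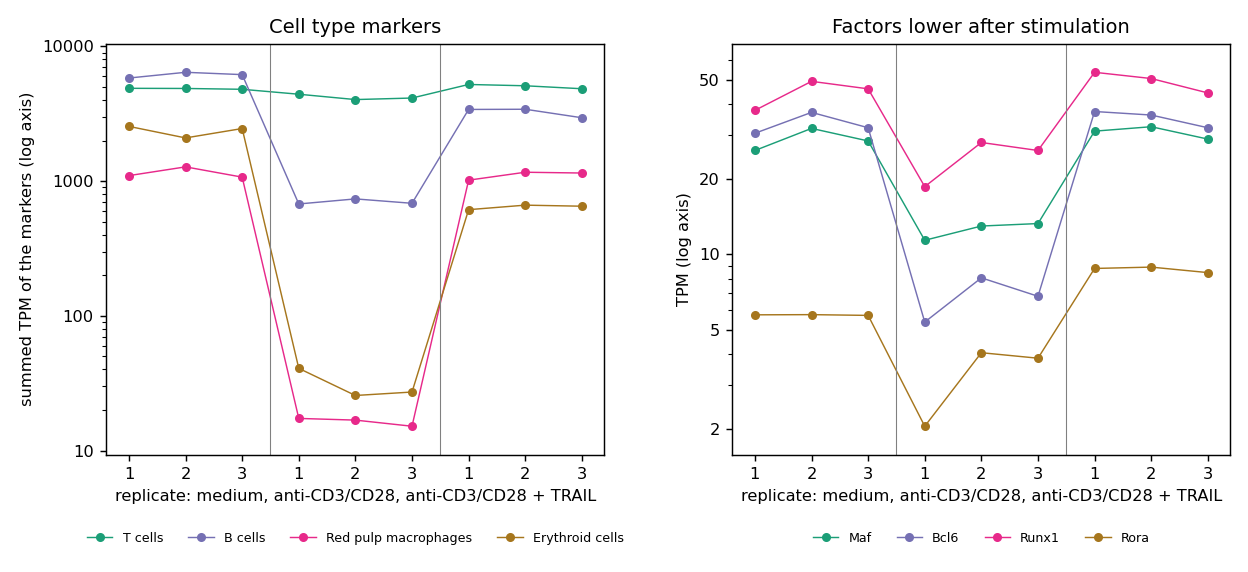
Left, summed TPM of the markers of 4 cell types in each of 9 libraries, and right, TPM of 4 factors in the same libraries, both on log axes with replicates in the order medium, stimulated and TRAIL-treated. Macrophage markers lie between 15.2 and 17.3 TPM in stimulated libraries and between 1020 and 1280 TPM elsewhere, and the 4 factors are lowest in the same libraries, by a smaller factor.

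Genes known to be regulated by or to work with these factors were taken as 7 fixed lists. Their counts stand beside 12.4% of all tested genes called higher and 19.5% called lower after stimulation, and 16.6% and 14.3% with TRAIL. Of 17 Th1 genes, 7 were called higher and 4 lower after stimulation, and 5 higher and 8 lower with TRAIL, with list medians of -0.08 and -0.59 (-0.15 and 0.01 over all genes). *Gzmb*, encoding granzyme B, went from 22.8 ± 2.51 TPM in medium to 1770 ± 59.1 TPM after stimulation and 23.4 ± 1.60 TPM with TRAIL. *Ifng*, the signature Th1 cytokine, was at 9.19 ± 1.30, 216 ± 31.1 and 41.3 ± 9.21 TPM, so that the TRAIL-treated cells stayed above medium (log2 change 2.04, adjusted p = 2.9e-05) although *Tbx21* did not. The chemokine gene *Ccl3* did likewise (19.6 ± 2.86, 188 ± 28.8 and 71.0 ± 9.73 TPM, with 1.80 above medium, adjusted p = 3.0e-05).

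Among 10 tested Th2 genes, 7 were called higher and 0 lower after stimulation, 1 higher and 7 lower with TRAIL. *Il5*, *Il13* and *Il24* passed the filter only through the stimulated libraries, where they reached 7.33, 50.4 and 23.4 TPM, and *Il24* was listed at the floor in all 6 others, so calls on these 3 follow in part from the filter. *Areg*, the 1 gene higher with TRAIL, likewise passed only through the TRAIL-treated libraries. Of the 6 genes left without these 4, 4 were called higher after stimulation, and 0 higher and 4 lower with TRAIL, with medians of 1.93 and -1.77. *Ccr8*, a Th2 chemokine receptor, was at 6.45 ± 0.829, 133 ± 7.15 and 30.7 ± 2.41 TPM, and *Ccr4* at 9.13 ± 1.05, 70.0 ± 3.20 and 8.76 ± 0.564 TPM. *Il4ra*, the IL-4 receptor chain, did not follow *Gata3* down with TRAIL, at 150 ± 12.4, 311 ± 44.4 and 290 ± 23.1 TPM (TRAIL-treated against stimulated -0.09, adjusted p = 0.515), and its rise after stimulation (1.04) missed 2-fold under quantile normalization (0.91) and without medium replicate 1 (0.99) or stimulated replicate 2 (0.95). *Stat6*, which transmits the IL-4 signal, was at 199 ± 12.0, 166 ± 36.3 and 156 ± 18.7 TPM with no call.

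The 7 tested Th17 genes gave 3 higher and 1 lower after stimulation and 1 higher and 3 lower with TRAIL. *Il17f* passed the filter only through the stimulated libraries, and *Il23r* depended on the medium libraries to pass it. Without both the counts were 2 and 1, and 1 and 2, with medians of 0.96 and -0.85. *Il17a* was at 1.03 ± 0.527, 13.1 ± 3.62 and 2.44 ± 0.821 TPM, and *Il22*, a cytokine that AhR also promotes, at 0.0717 ± 0.0710, 39.2 ± 5.26 and 1.70 ± 0.519 TPM. *Ccr6*, a receptor of Th17 cells and of B cells, had the opposite shape, at 43.1 ± 1.06, 1.89 ± 0.238 and 16.6 ± 2.19 TPM. *Stat3*, upstream of *Rora*, was at 111 ± 20.4, 218 ± 54.1 and 118 ± 13.2 TPM with changes of 0.96 and -0.85, which passed 2-fold without stimulated replicate 1 (1.18 and -1.08), and the rise also without medium replicate 2 (1.10) and with median-of-ratios scaling (1.05). Only 2 of 5 AhR target genes reached the filter. *Tiparp*, which encodes a feedback repressor of AhR, was at 21.9 ± 2.94, 15.8 ± 2.25 and 67.9 ± 5.92 TPM, higher with TRAIL than in stimulated cells (2.04, adjusted p = 4.5e-07) and than in medium (1.59, adjusted p = 3.2e-05). *Nqo1* was at 1.63 ± 0.595, 2.13 ± 0.187 and 1.04 ± 0.356 TPM with no call. Its fall with TRAIL against stimulated cells (-0.63) was called with a pseudocount of 0.1 TPM (-1.02). *Ahrr* (at most 0.894 TPM), *Cyp1b1* (at most 0.295 TPM) and *Cyp1a1* (at most 0.13 TPM) were not tested.

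Of 16 tested Tfh genes, 3 were called higher and 10 lower after stimulation (12.4% and 19.5% of all tested genes), and 7 higher and 2 lower with TRAIL (16.6% and 14.3%), with medians of -1.28 and 0.72 (-0.15 and 0.01 over all genes). *Il21*, the Tfh cytokine, was at 1.53 ± 0.592 TPM in medium, 346 ± 0.555 TPM after stimulation and 1.01 ± 0.193 TPM with TRAIL, opposite to both *Bcl6* and *Maf*. *Tcf7* and *Lef1*, which act upstream of *Bcl6* and are high in naive T cells, followed *Bcl6*. *Tcf7* was at 1080 ± 184, 511 ± 116 and 1060 ± 164 TPM, and its changes (-1.10 and 1.07) missed 2-fold without stimulated replicate 1 (-0.90 and 0.87), the fall also without medium replicate 2 (-0.97) and the rise without TRAIL-treated replicate 1 (0.97). *Lef1* was at 334 ± 52.8, 153 ± 22.0 and 349 ± 45.3 TPM. *Btla*, an inhibitory receptor that B cells share, fell after stimulation from 303 ± 19.4 to 108 ± 4.07 TPM and was at 161 ± 9.90 TPM with TRAIL. All 8 B cell markers were likewise called lower after stimulation and higher with TRAIL. The part of B cells in the Tfh counts was not tested.

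**Figure D5:**
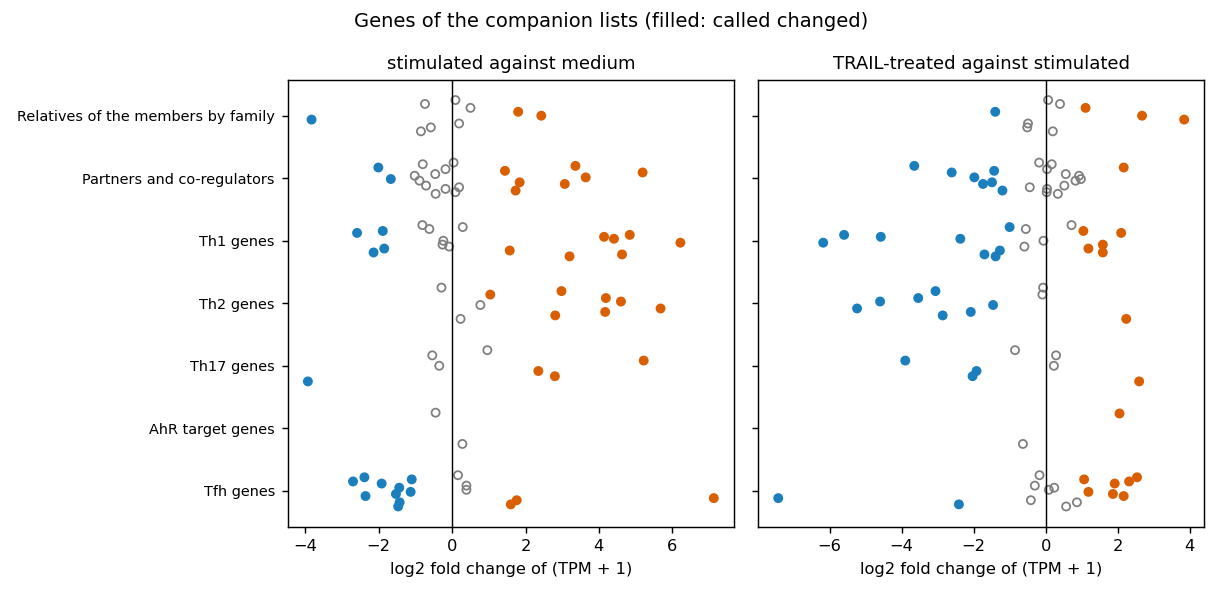
Log2 fold change of (TPM + 1) (horizontal axes) of each tested gene in 7 lists, after stimulation (left) and with TRAIL against stimulated cells (right); filled points were called changed and open points were not. Th2 genes lie mostly to the right after stimulation and to the left with TRAIL, and Tfh genes mostly the reverse.

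Partners and co-regulators of the factors (20 genes, all tested) gave 7 higher and 2 lower after stimulation (12.4% and 19.5% of all tested genes) and 1 higher and 7 lower with TRAIL (16.6% and 14.3%), with medians of -0.07 and 0.03 (-0.15 and 0.01 over all genes). *Irf4*, which cooperates with BATF in all effector lineages, was at 57.2 ± 3.69, 734 ± 136 and 183 ± 15.1 TPM and stayed above medium with TRAIL (1.66, adjusted p = 2.7e-05). *Satb1*, a chromatin organizer required for Th2 cytokine expression, was at 265 ± 38.7, 727 ± 143 and 267 ± 37.2 TPM. *Ets1*, a cofactor of T-bet and Runx proteins, was at 783 ± 75.0, 485 ± 90.7 and 692 ± 101 TPM and did not pass 2-fold. The corepressor *Ncor1* was at 167, 260 and 199 TPM in medium, 44.2, 152 and 153 TPM after stimulation and 253, 179 and 159 TPM with TRAIL. Its changes were not called (-1.02, adjusted p = 0.051, and 0.93, adjusted p = 0.0721). They were smaller without stimulated replicate 1, its lowest library (-0.43, adjusted p = 0.0971, and 0.34, adjusted p = 0.179), and were called without stimulated replicate 2 or stimulated replicate 3 (-1.31 and 1.22 each) and under quantile normalization (-1.12 and 1.07). The first was also called with a filter of 5 TPM (-1.02, adjusted p = 0.0489) and the second with median-of-ratios scaling (1.02).

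Relatives by family (9 of 11 tested) gave 2 higher and 1 lower after stimulation (12.4% and 19.5% of all tested genes), 3 higher and 1 lower with TRAIL (16.6% and 14.3%), and 2 higher and 1 lower with TRAIL against medium (2.49% and 2.13%), with medians of 0.09, 0.20 and 0.03. The small MAF proteins, which lack an activation domain and pair with CNC and Fos proteins, did not behave like *Maf*. *Maff* was at 1.70, 1.89 and 2.28 TPM in medium, 15.2, 15.5 and 14.0 TPM after stimulation and 83.6, 106 and 115 TPM with TRAIL. Each group lay wholly above the one before, and the TRAIL-treated level was 5.11 above medium (adjusted p = 2.5e-08) and 2.68 above stimulated cells (adjusted p = 6.7e-08) on the log2 scale. *Mafk* was also highest with TRAIL, at 31.6 ± 3.35, 44.9 ± 3.40 and 98.3 ± 5.56 TPM, and *Mafg* was highest after stimulation, at 12.5 ± 1.13, 45.9 ± 3.68 and 16.8 ± 1.15 TPM. A call in the same direction against both medium and stimulated cells was made for 237 of the 15536 tested genes (1.53%), and *Maff*, *Mafk* and *Tiparp* were among them, but none of the 9 factors was.

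The genes with the most similar profile were sought by the root mean square difference of log2(TPM + 1) over the 9 libraries, after each gene was centred on its own mean. For *Tbx21* these were *Ybx3* (0.0931), *Pgam1* (0.0956) and *Nefh* (0.110), for *Gata3* *Hsp90ab1* (0.0664), *Zfp281* (0.118) and *Gpi1* (0.132), and for *Prdm1* *Sbno2* (0.0659), *Ddb1* (0.0871) and *Slc39a14* (0.0937). *Pgam1* and *Gpi1* are glycolytic enzymes. The nearest to *Runx3* were *Igf1r* (0.0621), *Crybg1* (0.0690) and *Mapkbp1* (0.0841), and to *Runx1* *Maml1* (0.0575), *Arhgap39* (0.0739) and *Lrrc8a* (0.0764). *Bcl6* was nearest to *Lpl* (0.0695), *Tle4* (0.0929) and *Gm16069* (0.0941). *Tle4*, a Groucho family corepressor, was at 41.9, 9.59 and 46.6 TPM on average, and *Lpl*, lipoprotein lipase, at 10.4, 1.64 and 11.2 TPM. *Maf* was nearest to *Pink1* (0.0317), *Znrf1* (0.0775) and *Slc35f6* (0.0804), *Rora* to *Pcf11* (0.0873), *Ifnar1* (0.109) and *Lrig1* (0.110), and *Ahr* to *Tfip11* (0.0716), *Rybp* (0.0822) and *Iffo2* (0.0873). *Ifnar1* encodes a chain of the type I interferon receptor.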

How the data were processed

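Per the submitters' processing notes, the authors trimmed reads with Trimmomatic 0.36, aligned them with HISAT2 2.1.0 and used SAMtools 1.2, StringTie 2.1.2 and DESeq2. The notes list GRCh38, whereas the study's methods name the mouse build GRCm38, at which the loci in the table lie. The deposited table holds TPM values, a length-scaled share of each library. Which program made them and the strand setting are not given in the sources used here. Depth is unknown, so no counting error is given, and each library lists 57.6 to 60.1% of its genes at a floor of 0.0001 TPM.

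Groups and replicates came from the sample labels. All 9 libraries entered one fit in R 4.3.3 with limma 3.58.1 (eBayes with trend) on log2(TPM + 1), for genes reaching 1 TPM in 3 or more libraries, with Benjamini-Hochberg adjustment over all 15536. The test was checked on simulated data. A gene was called at an adjusted p under 0.05 and an absolute log2 change of at least 1. Members, gene lists and markers were chosen with earlier results of these data known. Named from each list were the 4 genes with the highest mean TPM, whatever their change (the values of some genes are not reported here), and for each factor the 3 nearest profiles among genes whose mean reached 10 TPM in some group. *Runx2*, *Il5*, *Il13*, *Il24*, *Areg*, *Il17f*, *Il23r*, *Cyp1a1*, single marker genes and genes overlapping a factor or sharing its promoter sequence were named after their values were seen. Alternatives changed the pseudocount, filter, scaling, variance trend, libraries, replicate block and threshold, and left out each library in turn. The list counts without genes that passed the filter through 1 group were added after seeing the data. Figures were drawn with Python 3.11.15 and matplotlib 3.10.9. Promoter windows came from RefSeq on GRCm38.p6.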

Additional observations from a re-analysis of the deposited data

How the results depend on the processing

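The number of factors called was 6 after stimulation, 8 with TRAIL against stimulated cells and 0 with TRAIL against medium. Leaving out each library in turn gave 5 to 6, 6 to 8 and 0 to 0. A pseudocount of 5 TPM lowered the first count to 4, losing *Maf* (-0.95) and *Prdm1* (0.74), and the second to 5 (2 higher and 3 lower), losing *Prdm1* (-0.75), *Rora* (0.73) and *Runx1* (0.91), and an adjusted p alone raised the first to 8 and the last to 2. No factor's called change turned its direction. Of 513 values recomputed for the 9 factors, 488 kept their side of the threshold, 21 lost it and 4 gained it. *Tbx21*, *Gata3* and *Bcl6* kept both calls under every alternative, and the calls lost were those of *Runx3*, *Prdm1*, *Runx1*, *Rora* and *Maf*, on size and not on adjusted p. Adding 1 TPM before taking the *Bcl6* to *Prdm1* ratio moved its change from -3.45 to -3.18 after stimulation and from 3.56 to 3.28 with TRAIL. Without 1 stimulated library the Th2 genes called fell from 7 to between 3 and 4 after stimulation, and from 8 to 5 with TRAIL. *Il5*, *Il13* and *Il24* then no longer passed the filter, and without stimulated replicate 2 *Il4ra* also missed 2-fold (0.95). Quantile normalization moved the median change of all genes after stimulation from -0.15 to 0.04.

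Whether same-numbered libraries share a mouse or a day is not stated. Their deviations from the group means correlated between -0.306 and 0.295 across genes. Those of differently numbered libraries correlated between -0.379 and 0.289, a similar range, so these values cannot decide it. With the replicate block the counts were 6, 8 and 0, and the block changed no call among the factors, while the adjusted p of *Rora* against medium became 0.053. Depth is not known, and 3 libraries a group limit the precision of changes near 2-fold.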
